A study of Rattus norvegicus with 59 samples.

Results

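Transcripts of the mitochondrial respiratory chain and of ATP synthase were followed in 5 brain regions of 2 inbred rat lines, the alcohol-preferring line iP (iP5C) and the non-preferring line iNP (iNP1). The members are all probe sets whose single gene symbol begins with Nduf, Uqcr, Atp5, Cox4, Cox5, Cox6, Cox7 or Cox8, or is Sdha, Sdhb, Sdhc, Sdhd, Cycs or Cyc1. That rule uses names only, and it found 101 probe sets of 55 genes, out of 8740 probe sets that are not controls and 4736 genes named by a single symbol. A further 7 probe sets with several symbols, of which at least 1 is of this kind, are not members. The animals were adult males, 6 of each line, and the frontal cortex, nucleus accumbens, hippocampus, striatum and amygdala of each rat were hybridised as single arrays without pooling. Cortex holds 5 iP animals and each of the other 9 groups 6. Rats of both lines were housed in pairs with chow and water freely available, and the labels name no drug or alcohol treatment for either line. Each line is 1 inbred strain, so a difference between the lines is a difference between these 2 strains.

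The respiratory chain passes electrons from NADH (complex I) and from succinate (complex II) through complex III and cytochrome c to oxygen at complex IV, and ATP synthase (complex V) makes ATP from the proton gradient that results. Neurons draw most of their ATP from this pathway, and fast-firing neurons are known for a high density of mitochondria. Most subunits are encoded in the nucleus and measured here; some complex IV subunits exist as a common form and a form best known from heart and skeletal muscle. By complex, the members were 43 probe sets of 25 genes for complex I, 1 of Sdha for complex II, 7 of 4 genes for complex III, 33 of 15 genes for complex IV and 17 of 10 genes for complex V. Ndufa4 and Ndufa4l2 were counted with complex IV, where the Ndufa4 protein is now placed, and the assembly factor Ndufaf3 and the ATP synthase inhibitor Atp5if1 stand with the complex they serve.

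Of the 101 members, 88 probe sets of 54 genes were among the 5244 probe sets bright enough to be tested, which were the 60% with the highest mean log2 signal. The dimmest tested member had a mean log2 signal of 7.67 and the brightest untested one 7.60. The 13 that fell short were 3 probe sets of Ndufa4l2 and 1 each of Ndufv3, Cox6c-ps1, Atp5if1, Ndufs8, Ndufab1, Ndufb11, Ndufb8, Ndufs4, Cox8b and Cox6a2. Only Cox6c-ps1, a pseudogene of Cox6c, was left with no tested probe set. The members are mostly bright: their median mean signal was 11.97 (log2), against 9.65 for all tested probe sets, and 86.4% of them lay above that second value. Their median standard deviation within a group was 0.217, against 0.281 for all. The brain samples are bulk tissue, so fewer cells of a type and less RNA per cell cannot be told apart. Each value is for a probe set, and levels are not compared between probe sets or genes, since probes bind with different strength; 25 genes had more than 1 tested probe set, and those on one target sequence are not independent.

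Median signal over all probe sets ran from 251 to 391 over the 59 arrays. The cortex array of iP animal 5 stood apart, with a log2 ratio of the 3′ over the 5′ Gapdh control probe sets of 6.14, where the other 58 arrays lay between -0.15 and 0.44. On that array 73 of the 88 members lay above the mean of cortex, by a median of 0.34, whereas the medians of the other 58 arrays lay between -0.15 and 0.18 of their region's mean. By correlation over all probe sets, 5 arrays resembled another region more than their own: cortex of iP animal 5 and accumbens of iP animal 4 were nearest amygdala, amygdala of iP animal 1 was nearest cortex, and the amygdala arrays of iNP animals 7 and 8 lay nearest accumbens. Medium spiny neuron markers were high where the labels place these cells, with 7 of 8 tested genes higher in striatum and 8 of 8 higher in accumbens than in the mean of the other 4 regions.

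The first question was whether the respiratory chain differs between the lines. No member passed the test. Over all regions, 0 of 88 members were called at a limma adjusted p under 0.05, where 2.65% of all probe sets tested were called; 4 members (4.55%) had an unadjusted p under 0.05, against 11.9% of all. The median difference, iP minus iNP, was 0.01 (log2) over the members and -0.01 over all probe sets, and the median absolute difference was 0.041 against 0.069. The 95% interval lay within ±0.25 for 67 members, within ±0.5 for 86 and within ±1 for 88, so that no member's interval reached a doubling of signal. The farthest bound was 0.57, for Cox5a, a subunit of complex IV whose log2 signal ranged from 5.43 to 9.41 (median 7.94) in amygdala. Members' differences ran from -0.10 for Cox4i2, the second isoform of subunit 4, to 0.19 for 1 probe set of Atp5if1.

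**Figure D1:**
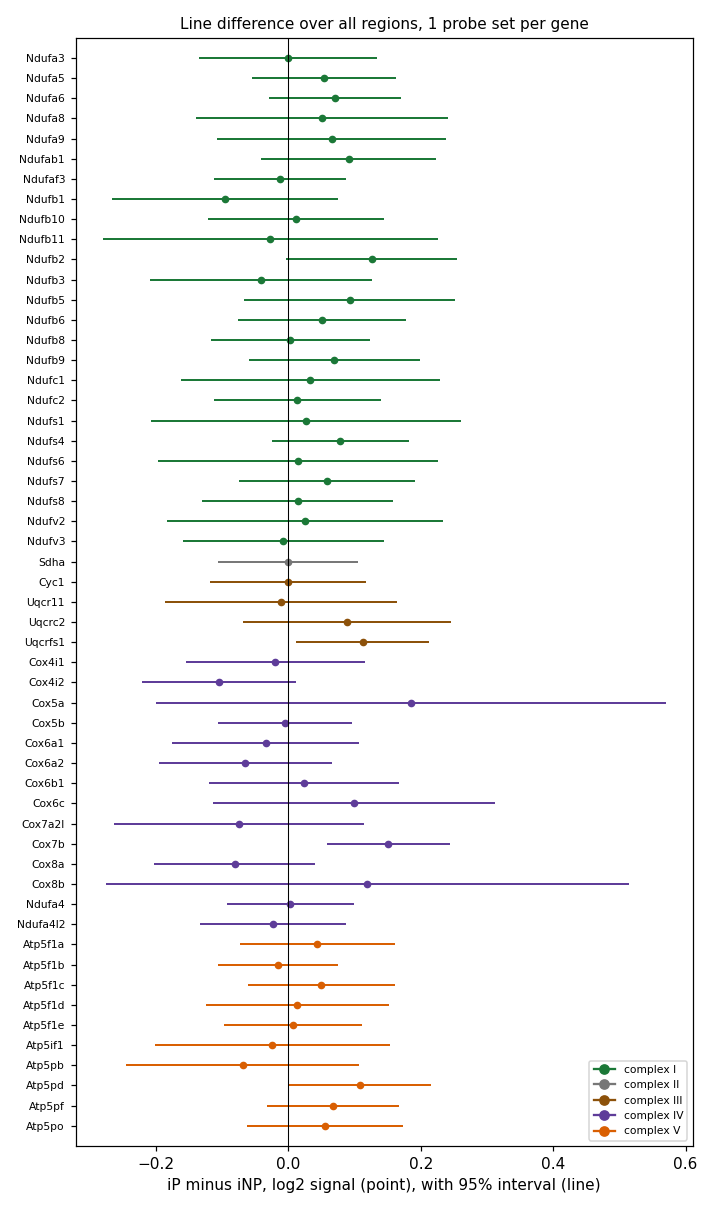
Difference between the lines over all regions (x axis, iP minus iNP, log2 signal) for the brightest tested probe set of each of the 54 genes (y axis), coloured by complex. Points are estimates from 6 iP and 6 iNP animals and lines their 95% intervals; most intervals include 0, and the interval of Cox5a reaches farthest, to 0.57.

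Cox7b, a small subunit of complex IV, had the smallest p of the members. Its means per animal over the regions (log2 signal) were 12.52, 12.46, 12.53, 12.43, 12.60 and 12.57 in the iP animals, and 12.36, 12.41, 12.26, 12.39, 12.38 and 12.40 in the iNP animals. Every iP animal lay above every iNP animal, which no other member showed and 2.86% of all probe sets did. The difference was 0.15 ± 0.04 (SE; limma adjusted p = 0.0953, not called). In cortex, striatum, hippocampus, amygdala and accumbens in turn the difference was 0.16, 0.10, 0.13, 0.02 and 0.34, higher in iP in each. Group medians in that order, which holds for all group medians given, were 12.63, 12.51, 12.47, 12.40 and 12.64 in iP, and 12.47, 12.42, 12.35, 12.37 and 12.31 in iNP, and within single regions the lines overlapped. When every array entered 1 fit with animals as random replicate blocks, Cox7b was called, at a limma adjusted p of 0.0409. That fit used 1 correlation within animals for all probe sets, 0.049. It therefore counted the arrays of an animal as nearly independent, although the line varies only between animals. Over all 19 alternatives the limma adjusted p of Cox7b ran from 0.0409 to 0.204.

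Uqcrfs1, the Rieske iron-sulfur protein of complex III, was next. Its 3 tested probe sets differed by 0.18 ± 0.06, 0.11 ± 0.05 and 0.15 ± 0.11 (iP minus iNP, log2, SE), with limma adjusted p of 0.205, 0.334 and 0.634, so none was called. The first 2 share a target sequence. Means per animal for the probe set M24542cds_at were 11.76, 11.75, 12.00, 11.81, 12.00 and 11.87 in the iP animals, and 11.61, 11.55, 11.80, 11.75, 11.66 and 11.76 in the iNP animals, so the lines overlapped. Its group medians in the same order of regions were 11.86, 11.86, 11.82, 11.76 and 11.94 in iP, and 11.69, 11.73, 11.60, 11.76 and 11.79 in iNP. For M24542cds_g_at they were 13.07, 13.07, 13.10, 13.21 and 13.17 in iP, and 13.10, 12.97, 13.02, 13.17 and 13.03 in iNP. By difference of means all 3 probe sets were higher in iP in all 5 regions, a description for probe sets of 1 gene. The medians did not all follow: that of iP was below that of iNP for M24542cds_g_at in cortex, and for rc_AI103911_at in hippocampus (9.64 against 9.70) and amygdala (9.89 against 10.05). The median over the 7 complex III probe sets was 0.10, with single values from -0.01 to 0.18, and 3 of the 7 are of Uqcrfs1. The medians were 0.03 for complex I, -0.01 for complex IV and 0.04 for complex V. A difference between the complexes was not tested.

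Atp5pd, in the peripheral stalk of ATP synthase, differed by 0.11 ± 0.05 (limma adjusted p = 0.404), with group medians of 12.65, 12.72, 12.80, 12.52 and 12.86 in iP, and 12.62, 12.67, 12.56, 12.51 and 12.59 in iNP. Ndufb2, in the membrane arm of complex I, differed by 0.13 ± 0.06 (limma adjusted p = 0.426), with group medians of 12.89, 12.91, 13.00, 12.96 and 13.16 in iP, and 12.94, 12.85, 12.80, 12.92 and 12.91 in iNP. Both sets of values overlap between the lines. Sdha, the flavoprotein of succinate dehydrogenase and the only complex II member on the array, differed by 0.00 ± 0.05, with a 95% interval from -0.10 to 0.10. Counted by sign, 8 of 88 members were higher in iP in all 5 regions, among them every tested probe set of Uqcrfs1. Lower in all 5 was 1, the M28255_s_at probe set of Cox8a. Among all 5244 probe sets 364 were higher in all 5 and 489 lower. Other tested Cox8a probe sets were higher in iP in 2 (L48209_s_at), 3 (rc_AI102505_at) and 1 (rc_AI102505_g_at) of the regions.

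Single regions gave no call either. Between the lines 0 of 88 members were called in cortex (0.229% of all), striatum (0.839%), hippocampus (0.667%), amygdala (0.725%) or accumbens (0.572%). Members with an unadjusted p under 0.05 were 0, 0, 2, 5 and 2 in that order, or 0%, 0%, 2.27%, 5.68% and 2.27%, beside 5.26%, 8.01%, 7.00%, 8.75% and 7.06% of all probe sets. No line by region interaction was called, among the members or among all probe sets (0%); 3 members (3.41%) had an unadjusted p under 0.05, against 4.61% of all. These were a probe set of Ndufaf3, the D13122_i_at probe set of Atp5if1 and Ndufa9, each with a limma adjusted p of 0.956.

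One gene that serves the chain, outside the member list, did differ in signal, in 1 probe set, rc_AA891978_at. Whether its RNA level or the binding of its probes differs between the strains was not tested. The gene stood in a list chosen with earlier results of these data known. Sdhaf2 encodes the factor that attaches FAD to the Sdha protein. In cortex its log2 signal ran from 9.83 to 10.17 in iP and from 10.51 to 11.06 in iNP. Hippocampus gave 9.84 to 10.07 in iP and 10.36 to 11.05 in iNP, and in each of the other 3 regions too the lines did not overlap. The share of all probe sets without overlap is given only for all regions together, where it was 2.86%. The difference over all regions was -0.85 ± 0.07 (log2, SE; limma adjusted p = 2.09e-06), and -0.83, -0.91, -0.70, -0.93 and -0.87 in cortex, striatum, hippocampus, amygdala and accumbens, all called. Of all probe sets tested, 2.65% were called over all regions and 0.229%, 0.839%, 0.667%, 0.725% and 0.572% in those regions in turn. Sdha itself, as above, gave 0.00. Sdhaf2 was the only one of 25 listed assembly factors with a tested probe set. None of 10 tested genes of the citric acid cycle and pyruvate dehydrogenase, 11 tested carriers, channels and creatine kinases, 6 tested mitochondrial antioxidant enzymes or the 1 tested regulator (Esrra) was called between the lines over all regions or in any region.

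The regions were then compared, each with the mean of the other 4 and with the animal as a block. Any difference between regions was called for 21 of 88 members (23.9%, 15 genes), beside 45.4% of all probe sets tested. The share of members called lay below that of all probe sets in each single contrast as well, a description with no test. Cortex gave 8 (9.09%; background 17.0%), striatum 4 (4.55%; 13.9%), hippocampus 10 (11.4%; 23.3%), amygdala 7 (7.95%; 26.1%) and accumbens 6 (6.82%; 20.9%). All 8 calls in cortex were higher there, beside 7.86% of all probe sets called higher and 9.19% lower. Striatum had 1 higher (6.27% of all) and 3 lower (7.65%). Hippocampus had 1 higher (10.8%) and 9 lower (12.5%), and amygdala 1 higher (13.3%) and 6 lower (12.8%). Accumbens had 3 higher (12.3%) and 3 lower (8.58%). Median differences over the members stayed small, from -0.02 in striatum to 0.04 in cortex, where the medians of all probe sets ran from -0.02 to 0.02.

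**Figure D2:**
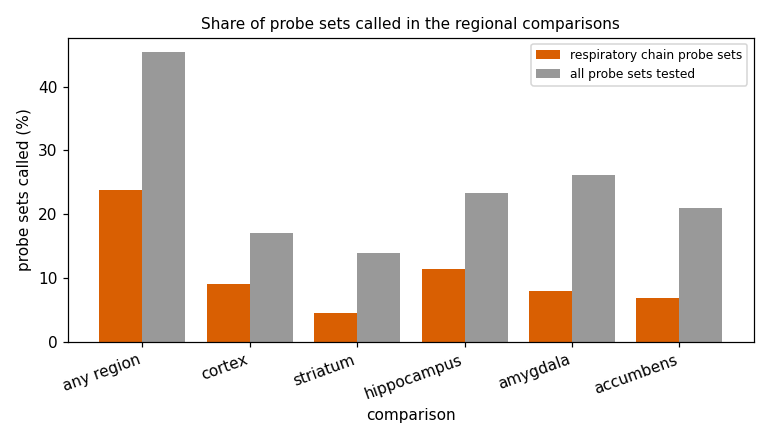
Share of probe sets called (y axis, percent, limma adjusted p under 0.05) in the test of any regional difference and in each region against the other 4 (x axis), for the 88 respiratory chain probe sets and all 5244 tested. The members' bar is the lower one in every comparison, 23.9% against 45.4% for any region.

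**Figure D3:**
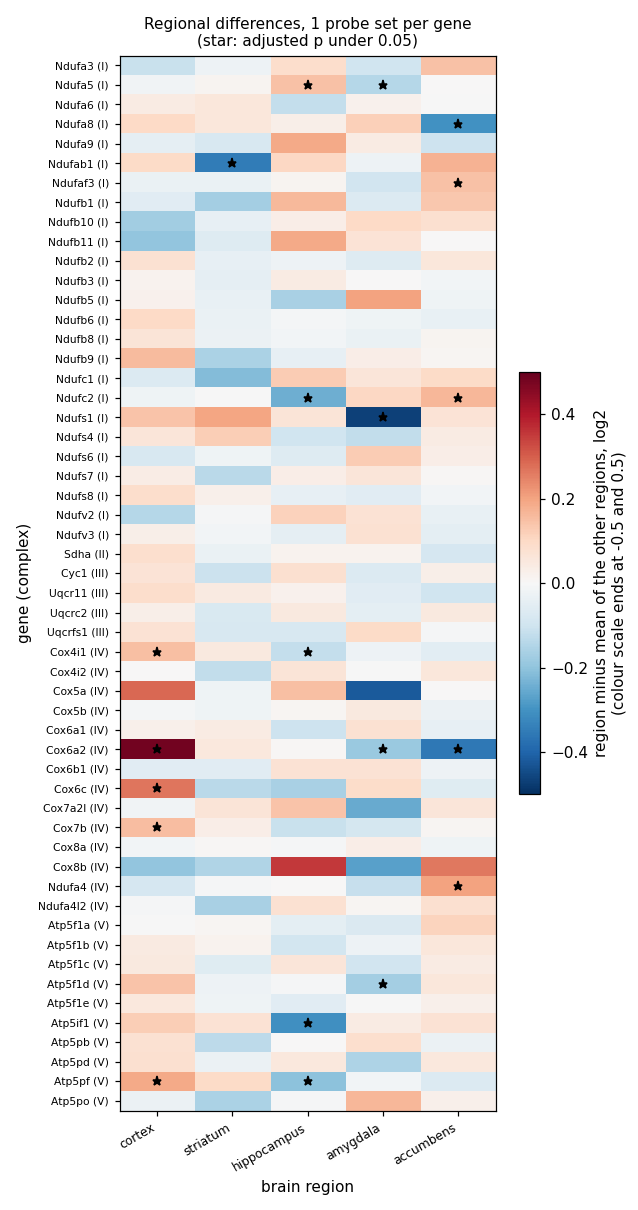
Difference of each region (columns) from the mean of the other 4, in log2 signal, for the brightest tested probe set of 54 genes (rows, with the complex in brackets); stars mark an adjusted p under 0.05. Most cells are pale, and Cox6a2 in cortex and Ndufs1 in amygdala stand out.

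The member with the largest rise was Cox6a2, the heart and muscle isoform of cytochrome oxidase subunit 6a. By mean it was highest in cortex and lowest in accumbens in both of its tested probe sets. Its promoter is shown because it was the only one of 46 member promoters given by RefSeq (GRCr8) with the letters CTAAAAATA, a site form bound by MEF2 factors. The 300 bases run from 250 before to 50 after the gene's start, chr1:192219667-192219966 on the minus strand, 5′ to 3′, with the match (bases 201 to 209) in capitals.
Cox6a2: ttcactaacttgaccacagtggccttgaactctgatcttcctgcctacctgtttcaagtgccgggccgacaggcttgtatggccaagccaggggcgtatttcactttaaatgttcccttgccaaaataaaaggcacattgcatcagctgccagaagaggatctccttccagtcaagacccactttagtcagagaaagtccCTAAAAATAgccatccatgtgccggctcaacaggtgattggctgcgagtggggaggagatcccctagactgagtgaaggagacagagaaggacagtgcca
Both strands were searched, and 0.511% of all 33469 promoters of this length hold these letters. They were shortened from 10 letters to 9 after a first search, in which Cox6a2 was again the only member promoter with a match and 0.137% of all promoters had one. A match describes the sequence and is no evidence of binding.

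In cortex the X12554cds_s_at probe set of Cox6a2 read 10.43, 10.54, 10.75, 10.36 and 10.42 in the 5 iP animals and from 10.21 to 10.78 (median 10.73) in iNP (log2 signal). Over both lines it ran from 9.95 to 10.48 (median 10.23) in striatum, from 9.71 to 10.68 (median 10.14) in hippocampus, from 9.64 to 10.53 (median 10.03) in amygdala and from 9.62 to 10.08 (median 9.89) in accumbens. All cortex values lay above all accumbens values, while the ranges of cortex and of the other 3 regions overlapped. Group medians were 10.43, 10.23, 10.14, 9.99 and 9.86 in iP, and 10.73, 10.22, 10.18, 10.06 and 9.95 in iNP. The cortex difference was 0.48 ± 0.07 (log2, SE; adjusted p = 9.88e-07), higher in 11 of 11 animals, and the accumbens difference -0.36 ± 0.07 (log2, SE; adjusted p = 7.86e-05). Amygdala differed by -0.18 ± 0.07 (log2, SE; adjusted p = 0.0417), a call lost without animal 2, 3, 4, 5, 6, 10 or 11 (adjusted p from 0.0535 to 0.128). Neighbours in the order cortex, striatum, hippocampus, amygdala and accumbens overlapped throughout.

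The dimmer probe set, rc_AI171644_s_at, read 9.29, 9.96, 10.28, 10.07 and 9.97 in the iP cortex and from 9.79 to 10.35 (median 10.16) in the iNP cortex. It ran from 9.18 to 10.22 (median 9.43) in striatum, from 7.42 to 9.85 (median 9.23) in hippocampus, from 8.90 to 10.01 (median 9.53) in amygdala and from 7.52 to 9.58 (median 9.26) in accumbens. Single arrays of hippocampus and accumbens were far below the rest. Group medians were 9.97, 9.50, 9.23, 9.41 and 9.41 in iP, and 10.16, 9.35, 9.22, 9.70 and 8.86 in iNP. Cortex differed by 0.78 ± 0.15 (log2, SE; adjusted p = 6.11e-05), again in 11 of 11 animals, and accumbens by -0.54 ± 0.14 (log2, SE; adjusted p = 0.00318), lower in 8 of 12. In hippocampus this probe set gave -0.43 ± 0.14 (log2, SE; adjusted p = 0.0199), lost without animal 4 (adjusted p = 0.0940) or 9 (0.0900), while the brighter one gave 0.01. In amygdala rc_AI171644_s_at was not called, and its mean of 9.52 there lay above its mean of 9.41 over all 59 arrays. The brighter probe set was lower in amygdala, so the 2 disagreed there. Another Cox6a2 probe set was below the signal filter, with 38 of 59 arrays at the floor.

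Cox6a1, the common isoform of the same subunit, showed no called difference. Its brightest probe set ran from 14.38 to 15.01 (median 14.51) in cortex and from 14.19 to 14.86 (median 14.60) in accumbens. Its 3 probe sets differed in cortex by 0.03, -0.03 and 0.04, and in accumbens by -0.04, 0.00 and 0.03; none was called, and the difference between the isoforms was not tested. Without the cortex array of iP animal 5 and the amygdala array of iP animal 1, the cortex differences of Cox6a2 were 0.51 and 0.81.

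**Figure D4:**
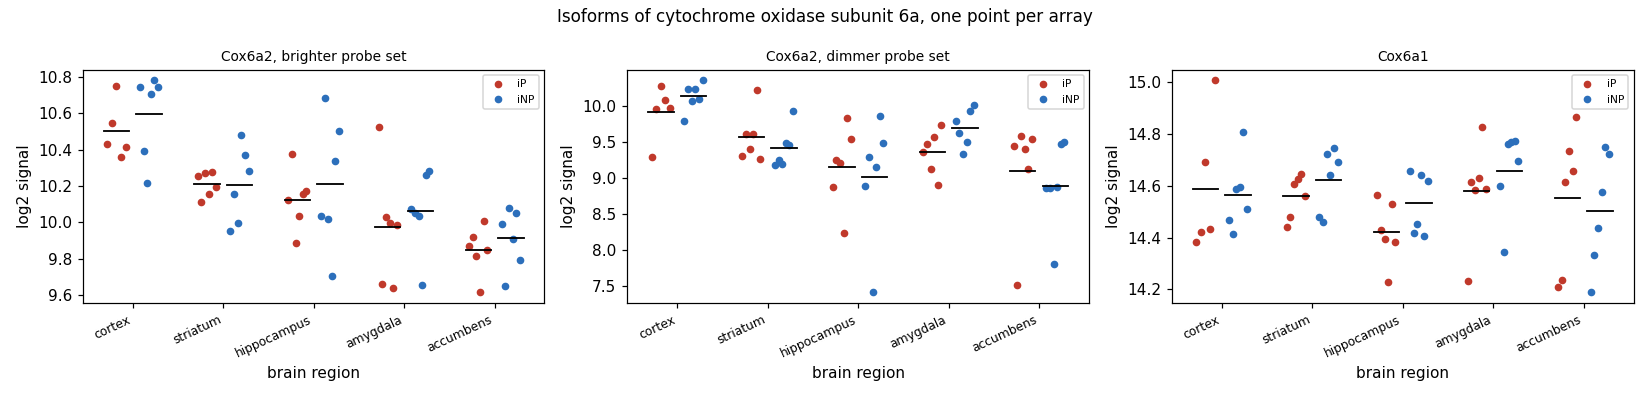
Log2 signal (y axis) of the 2 tested probe sets of Cox6a2 and the brightest probe set of Cox6a1 by region (x axis), with iP and iNP side by side; each point is 1 array and the bars are group means. The brighter Cox6a2 probe set lies between 10.21 and 10.78 in cortex and between 9.62 and 10.08 in accumbens, and Cox6a1 overlaps across all regions.

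Some markers of other cells differed in the same regions as Cox6a2. Of 4 genes listed for fast-spiking parvalbumin interneurons, 3 were higher in cortex, namely Pvalb by 1.35, Kcnc2 by 0.70 and Kcnc1 by 0.67, and Gad1 was lower by a difference of -0.34. In accumbens the same 3 were lower (-0.66, -0.70 and -0.35) and Gad1 higher (0.83). In amygdala Pvalb (-0.84), Kcnc1 (-0.27) and Gad1 (-0.22) were called lower, and Kcnc2 gave -0.17 and was not called. The fall of Pvalb was thus larger in amygdala than in accumbens, where Cox6a2 was lowest by mean. The mean level of that list, with Gad1 included although it went the other way, ran from 10.96 to 11.77 in cortex and from 9.88 to 11.21 in accumbens. In striatum, hippocampus and amygdala it lay between 10.31 and 11.16. Of 9 skeletal muscle genes, 3 were tested. Tnnc2, the fast-muscle troponin C, was higher in cortex by 1.75 and lower in accumbens (-0.45), hippocampus (-0.77) and amygdala (-0.97). It was also higher in striatum by 0.44 (adjusted p = 9.52e-04), where neither Cox6a2 probe set was called. Acta1 and Myh1 gave -0.04 and -0.05 in cortex and were not called. The mean level of the muscle list ran from 10.59 to 11.03 in cortex and from 9.80 to 10.67 over the other regions. Ckm, Tnnt3, Tnni2 and Myh2, from the same list, were below the signal filter and were not tested. Ckmt1, the mitochondrial creatine kinase, was higher in cortex (0.48) and striatum (0.28) and lower in accumbens (-0.48). Neuron markers were higher in cortex for 3 of 6 genes. Their part in the Cox6a2 result was not tested.

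Cox4i1 and Atp5pf were each called higher in cortex and lower in hippocampus, with smaller differences. Cox4i1 is the common form of subunit 4 of complex IV, and Atp5pf encodes factor F6 of the ATP synthase stalk. Their promoters (RefSeq, GRCr8, 250 bases before to 50 after the start, 5′ to 3′) are shown because both genes were called in the same 2 directions and both hold an ETS family core, CCGGAAG or its complement CTTCCGG, in capitals; in Atp5pf the YY1 letters AAGATGGCG are in capitals too. Cox4i1 lies at chr19:65630133-65630432 on the plus strand and Atp5pf at chr11:37375052-37375351 on the minus strand.
Cox4i1: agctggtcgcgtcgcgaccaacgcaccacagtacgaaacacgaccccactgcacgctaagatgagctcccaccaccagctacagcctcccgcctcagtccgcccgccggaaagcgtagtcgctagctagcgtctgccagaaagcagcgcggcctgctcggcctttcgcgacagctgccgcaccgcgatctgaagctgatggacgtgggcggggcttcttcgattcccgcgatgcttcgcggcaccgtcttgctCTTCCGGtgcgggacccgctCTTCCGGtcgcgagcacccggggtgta
Atp5pf: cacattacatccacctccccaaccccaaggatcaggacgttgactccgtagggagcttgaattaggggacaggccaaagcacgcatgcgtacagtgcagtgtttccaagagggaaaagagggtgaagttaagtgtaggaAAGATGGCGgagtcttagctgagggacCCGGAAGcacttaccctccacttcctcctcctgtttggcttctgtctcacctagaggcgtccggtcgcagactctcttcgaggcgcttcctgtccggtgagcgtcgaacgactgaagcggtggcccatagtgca
Searched on both strands, the ETS letters were in 9 of 46 member promoters (19.6%) and in 8.75% of all promoters. YY1 letters were in 7 members (15.2%; Atp5pf, Ndufa6, Ndufa9, Ndufb8, Ndufs4, Ndufs6 and Ndufs7) against 1.73% of all, and the NRF1 letters GCGCANGCG in 9 (19.6%) against 5.8%. The letters for YY1 and NRF1 were also shortened from 10 to 9 after a first search, which gave 7 members (15.2%) against 0.98% of all for YY1 and 6 members (13%) against 4.25% for NRF1. None of the capitals in these promoters overlap, and the shares were not tested.

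The brightest Cox4i1 probe set ran from 14.90 to 15.51 (median 15.11) in cortex and from 14.77 to 15.18 (median 14.92) in hippocampus, so the regions overlapped. Its cortex difference was 0.15 ± 0.04 (log2, SE; adjusted p = 0.00673), and a second probe set, J05425cds_s_at, gave 0.18 ± 0.05 (0.0109), lost without animal 5 (0.0525). In hippocampus the first gave -0.12 ± 0.04 (log2, SE; adjusted p = 0.0243), lost without animal 4, 9 or 11 (adjusted p from 0.0819 to 0.0916). The third probe set, X54081mRNA_i_at, gave 0.09 in cortex, and in hippocampus it gave -0.01 and J05425cds_s_at -0.07; these were not called. In amygdala X54081mRNA_i_at differed by -0.20 ± 0.05 (log2, SE; adjusted p = 0.00240), with group medians of 13.51, 13.39, 13.37, 13.13 and 13.38 in iP, and 13.50, 13.46, 13.33, 13.23 and 13.53 in iNP; the 2 other probe sets just named gave -0.03 and -0.11 there and were not called.

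For Atp5pf, the probe set X54510_at ran from 12.43 to 13.16 (median 12.62) in cortex and from 12.10 to 12.67 (median 12.35) in hippocampus. Group medians were 12.61, 12.66, 12.35, 12.55 and 12.56 in iP, and 12.66, 12.58, 12.39, 12.44 and 12.45 in iNP, and for X54510_g_at, on the same target, 12.18, 12.10, 11.86, 11.95 and 12.14 in iP, and 12.16, 12.08, 11.76, 11.78 and 11.81 in iNP. The cortex differences were 0.19 ± 0.07 (log2, SE; adjusted p = 0.0338) and 0.24 ± 0.07 (log2, SE; adjusted p = 0.0105). The first of these was lost without animal 5, 8, 10 or 12 without the arrays that stand apart (adjusted p = 0.0852) and without the 5 arrays nearest another region (0.0564), and the second without animal 10 (0.0501). In hippocampus the pair gave -0.20 and -0.21 (adjusted p = 0.0121 and 0.0159), lower in 11 and 12 of 12 animals.

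Cox6c and Cox7b, both small subunits of complex IV, completed the cortex calls. The M27466_at probe set of Cox6c ran from 9.78 to 10.82 (median 10.48) in cortex and from 9.30 to 10.59 (median 10.17) in striatum, with group medians of 10.48, 10.22, 10.27, 10.31 and 10.30 in iP, and 10.42, 10.03, 9.91, 10.38 and 10.11 in iNP. The difference was 0.27 ± 0.09 (log2, SE; adjusted p = 0.0399). It was lost without animal 2, 3, 5, 8, 10, 11 or 12 (adjusted p from 0.0571 to 0.111) and without the arrays that stand apart (0.0827). Its other tested probe set, M27467_at, gave 0.01 ± 0.10 in cortex (log2, SE; adjusted p = 0.948) and was not called. Cox7b differed by 0.15 ± 0.05 (log2, SE; adjusted p = 0.0365). That call was lost without the 2 arrays that stand apart (0.11, adjusted p = 0.127), without the 5 nearest another region (0.11, adjusted p = 0.125) and without animal 3, 4, 5, 10 or 11 (adjusted p from 0.0570 to 0.122). Without the 2 arrays that stand apart the cortex count was 9, of which 7 were higher and 2 lower, Ndufb11 (-0.24) and Ndufb10 (-0.21) of complex I, beside 22.2% of all probe sets. The count was 4 without animal 10.

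In hippocampus the largest fall was in Atp5if1, the inhibitor that stops ATP synthase from running in reverse. Its probe set D13122_i_at ran from 6.84 to 8.23 (median 7.35) in iP and from 4.75 to 8.07 (median 6.75) in iNP. This probe set was the dimmest tested member, with a mean log2 signal of 7.67, close to the signal filter. In the other regions it lay between 7.12 and 8.36, so the lowest hippocampal arrays fell below all others. Group medians were 7.76, 7.96, 7.35, 7.70 and 7.81 in iP, and 7.94, 8.16, 6.75, 7.84 and 7.69 in iNP. The difference was -0.89 ± 0.17 (log2, SE; adjusted p = 2.95e-05), lower in 9 of 12 animals, with estimates of -0.38 in iP and -1.39 in iNP that rest on arrays with an SD of 1.03. A brighter probe set, rc_AA891873_f_at, ran from 10.74 to 11.81 (median 11.46) in hippocampus and from 11.55 to 12.09 (median 11.70) in cortex, with group medians of 11.70, 11.78, 11.46, 11.82 and 11.74 in iP, and 11.75, 11.65, 11.47, 11.71 and 11.70 in iNP. It differed by -0.31 ± 0.07 (log2, SE; adjusted p = 3.04e-04) and was lower in 12 of 12 animals. The third, D13122_f_at, gave -0.07 ± 0.07 (adjusted p = 0.509) and was not called, so the probe sets of this gene disagreed in size. Their suffixes mark probes that are incomplete (_i) or shared with a sequence family (_f).

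Ndufc2, an accessory subunit in the membrane arm of complex I, was lower in hippocampus in 12 of 12 animals. It ran from 11.80 to 12.10 (median 11.92) in hippocampus, from 11.90 to 12.35 (median 12.11) in striatum and from 11.96 to 12.57 (median 12.26) in accumbens, with group medians of 12.16, 12.17, 11.91, 12.22 and 12.17 in iP, and 12.05, 12.02, 11.92, 12.14 and 12.31 in iNP. The hippocampal difference was -0.24 ± 0.05 (log2, SE; adjusted p = 4.80e-05). The accumbens difference, of the opposite sign, was 0.16 ± 0.05 (log2, SE; adjusted p = 0.00725). Its estimates were 0.04 in iP and 0.28 in iNP, with no interaction called. Uqcrfs1 fell in hippocampus in 2 probe sets, with differences of -0.30 ± 0.07 (log2, SE; adjusted p = 0.00161) for rc_AI103911_at and -0.19 ± 0.06 (log2, SE; adjusted p = 0.0196) for M24542cds_at. The latter was lost without animal 4, 8 or 12 (adjusted p from 0.0556 to 0.0930). The third gave -0.08 and was not called. For rc_AI103911_at, group medians were 10.08, 9.99, 9.64, 9.89 and 10.17 in iP, and 9.93, 9.82, 9.70, 10.05 and 9.82 in iNP. Ndufa5, in the matrix arm of complex I, was the 1 member higher in hippocampus, by 0.15 ± 0.05 (log2, SE; adjusted p = 0.0181). Its group medians were 12.01, 12.01, 12.17, 11.83 and 12.05 in iP, and 11.95, 11.99, 12.04, 11.90 and 11.95 in iNP, and the call was lost without animal 2, 6 or 7 (adjusted p from 0.0535 to 0.0624).

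Of 2 tested choroid plexus markers, Ttr was higher in hippocampus by 4.40 and Prlr gave -0.06, and the mean level of the choroid list ran from 8.51 to 12.09 in hippocampus and from 7.40 to 8.66 in the other 4 regions. All 6 tested oligodendrocyte markers were higher, and their mean level ran from 13.03 to 13.44. The part of these cells in the members' falls was not tested.

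In amygdala the largest fall was in Ndufs1, the largest iron-sulfur core subunit of complex I. Its log2 signal ran from 8.38 to 9.22 (median 8.81) in amygdala, from 8.90 to 9.76 (median 9.38) in striatum, from 8.40 to 9.62 (median 9.39) in hippocampus, from 8.95 to 9.64 (median 9.26) in accumbens and from 8.00 to 9.95 (median 9.41) in cortex. Amygdala was lowest by median, and the ranges overlapped. Group medians were 9.41, 9.38, 9.51, 8.71 and 9.35 in iP, and 9.40, 9.40, 9.24, 8.85 and 9.18 in iNP. The difference was -0.47 ± 0.09 (log2, SE; adjusted p = 1.37e-04), lower in 12 of 12 animals, and -0.51 without the arrays that stand apart. The lowest cortex value, 8.00, belonged to iP animal 5; without those arrays Ndufs1 was called higher in cortex (0.27, adjusted p = 0.0204).

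Ndufs4, a matrix arm subunit whose loss is known to cause Leigh syndrome, was lower in amygdala and higher in striatum. Its rc_AI013297_at probe set ran from 9.85 to 10.31 (median 10.07) in amygdala and from 10.17 to 10.59 (median 10.35) in striatum, with group medians of 10.22, 10.30, 10.21, 10.08 and 10.27 in iP, and 10.26, 10.44, 10.11, 10.05 and 10.19 in iNP. The amygdala difference was -0.16 ± 0.05 (log2, SE; adjusted p = 0.0155), lost without animal 5 or 10 (0.0547 and 0.0571). The striatum difference was 0.18 ± 0.05 (log2, SE; adjusted p = 0.00786), with estimates of 0.08 in iP and 0.27 in iNP and no interaction called. The other tested probe set, rc_AI013297_g_at, gave -0.12 ± 0.05 in amygdala (adjusted p = 0.0855) and 0.12 ± 0.05 in striatum (adjusted p = 0.131), neither called. Atp5f1d, the delta subunit of F1, differed in amygdala in the probe set U00926_g_at by -0.17 ± 0.06 (log2, SE; adjusted p = 0.0384), a call lost without animal 3, 4, 5, 8, 9, 10, 11 or 12 (adjusted p from 0.0516 to 0.115); its group medians were 11.69, 11.71, 11.64, 11.56 and 11.75 in iP, and 11.88, 11.52, 11.71, 11.49 and 11.71 in iNP. Its other probe set, U00926_at, gave -0.04 ± 0.06 in amygdala (adjusted p = 0.707) and was not called. Ndufa5 was lower too, with a difference of -0.14 ± 0.05 (log2, SE; adjusted p = 0.0200), lost without animal 4 or 10 (0.0553 and 0.0829). Ndufaf3, an assembly factor of complex I, was higher in amygdala in the probe set rc_AI171562_at, by 0.25 ± 0.07 (log2, SE; adjusted p = 0.00467) in 10 of 12 animals. The estimates were 0.37 in iP and 0.13 in iNP, with no interaction called. For this probe set of Ndufaf3 the group medians were 9.86, 10.02, 10.16, 10.47 and 10.20 in iP, and 10.22, 9.99, 10.34, 10.29 and 10.13 in iNP. Its 2 other tested probe sets were not called there and differed in sign, with -0.09 ± 0.05 for U95161_s_at (adjusted p = 0.203) and 0.20 ± 0.14 for U95162_at (adjusted p = 0.301).

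The amygdala count moved with the arrays kept. It was 11 of 88 without the 2 arrays that stand apart (3 higher), where 33.4% of all probe sets were called, and 15 (8 higher) without the 5 arrays nearest another region, where 38.4% were. Under quantile normalization it was 8, of which 2 were higher. It fell to 4 without animal 4, 5 or 10. All 6 tested oligodendrocyte markers were lower in amygdala. Their mean level ran from 11.66 to 12.83 there and from 12.85 to 13.44 in striatum, hippocampus and accumbens. In cortex it ran from 12.06 to 12.94, which overlapped amygdala. Neuron markers were lower for 4 of 6 genes and higher for 2. The part of these cells was not tested.

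In accumbens Ndufa4 was higher and Ndufa8 lower. Ndufa4, the complex IV subunit first assigned to complex I, ran from 12.25 to 12.67 (median 12.42) in accumbens, from 11.73 to 12.43 (median 12.22) in cortex and from 11.71 to 12.49 (median 12.21) in amygdala, with group medians of 12.33, 12.29, 12.25, 12.17 and 12.45 in iP, and 12.18, 12.30, 12.32, 12.23 and 12.41 in iNP. The difference was 0.20 ± 0.06 (log2, SE; adjusted p = 0.00552), higher in 12 of 12 animals. Ndufa8, on the intermembrane side of complex I, ran from 12.15 to 13.36 (median 13.01) in accumbens and from 12.66 to 13.63 (median 13.36) in amygdala, with group medians of 13.17, 13.16, 13.16, 13.49 and 13.01 in iP, and 13.15, 13.26, 13.31, 13.22 and 12.92 in iNP. It differed by -0.30 ± 0.08 (log2, SE; adjusted p = 0.00560), lower in 12 of 12. The ranges overlapped for both genes. A probe set of Ndufaf3, U95161_s_at, was higher by 0.15 ± 0.05 (log2, SE; adjusted p = 0.0446). Its group medians were 10.37, 10.48, 10.44, 10.45 and 10.59 in iP, and 10.42, 10.44, 10.51, 10.44 and 10.53 in iNP, and the call was lost without animal 2, 3, 5, 7, 8, 10 or 11 (adjusted p from 0.0630 to 0.124). In accumbens rc_AI171562_at gave 0.01 and U95162_at -0.29 ± 0.14 (adjusted p = 0.129), neither called. Quantile normalization gave 10 calls in accumbens, 6 higher. All 3 tested blood genes were higher in accumbens; their part was not tested.

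**Figure D5:**
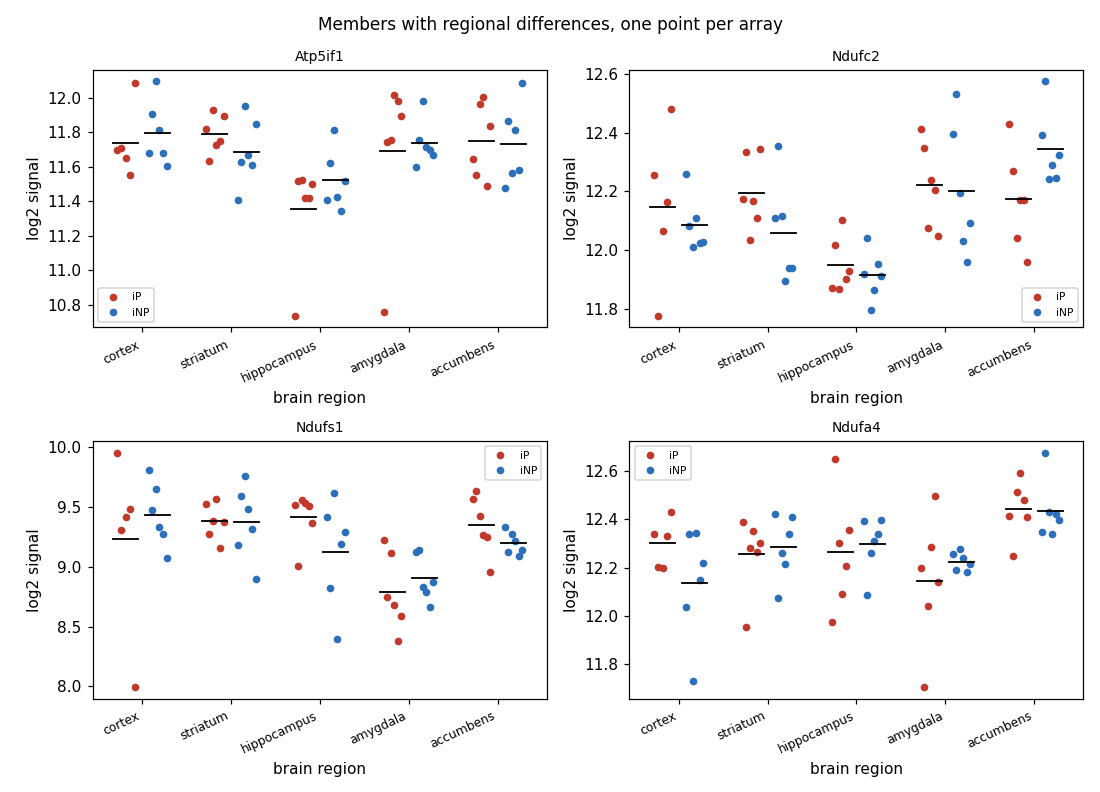
Log2 signal (y axis) of Atp5if1 (rc_AA891873_f_at), Ndufc2, Ndufs1 and Ndufa4 by region (x axis), with iP and iNP side by side; each point is 1 array and the bars are group means. Medians are lowest in hippocampus for Atp5if1 (11.46) and Ndufc2 (11.92), lowest in amygdala for Ndufs1 (8.81) and highest in accumbens for Ndufa4 (12.42).

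Striatum had the fewest calls. Ndufab1, the mitochondrial acyl carrier protein that is also part of complex I, was lower in 2 probe sets. The dimmer of them was lower in 7 of 12 animals and higher in 5. The brighter one ran from 10.88 to 12.40 (median 11.91) in striatum, with an SD of 0.44, and from 12.08 to 12.47 (median 12.30) in hippocampus; group medians were 12.38, 12.04, 12.35, 12.20 and 12.37 in iP, and 12.21, 11.91, 12.24, 12.23 and 12.36 in iNP. It differed by -0.35 ± 0.08 (log2, SE; adjusted p = 0.00152), lower in 8 of 12 animals, so the fall rests on part of the animals. The dimmer one gave -0.34 ± 0.12 (log2, SE; adjusted p = 0.0470), with group medians of 10.59, 10.34, 10.73, 10.45 and 10.88 in iP, and 10.61, 10.30, 10.66, 10.65 and 10.64 in iNP, and lost its call without animal 2, 3, 5, 6, 8, 9 or 11 (adjusted p from 0.0632 to 0.161) and without the 5 arrays nearest another region (0.0527). Ndufaf3 was lower in rc_AI171562_at, with a difference of -0.19 ± 0.07 (log2, SE; adjusted p = 0.0467), lost without animal 3, 4, 5, 6, 10, 11 or 12 (0.0767 to 0.136); U95161_s_at gave -0.03 and U95162_at -0.03 there, and neither was called. The count in striatum was 2 without animal 3, 5 or 11. Of 6 tested oligodendrocyte markers, 5 were higher in striatum, namely Mag (0.47), Mog (0.42), Mal (0.39), Mobp (0.32) and Cnp (0.26), and their mean level ran from 12.90 to 13.30. All 3 tested blood genes were lower there, Hbb-b1 (-0.37), Hbb (-0.32) and Alas2 (-0.26), and their mean level ran from 12.05 to 13.25. The part of these cells in the members' differences was not tested.

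Other genes of mitochondrial energy supply, from lists outside the member rule, moved between regions as follows. Among 10 tested genes of the citric acid cycle and pyruvate dehydrogenase, Pdk1, a kinase that switches pyruvate dehydrogenase off, was higher in cortex (0.33). Idh3g (0.21), Pdk2 (0.19) and Dlat (0.09) were higher in hippocampus, and Pdk2 was lower in accumbens (-0.24). Of 11 carriers, channels and creatine kinases, the uncoupling protein gene Ucp2 was higher in hippocampus (0.41) and lower in striatum (-0.44) and cortex (-0.24), and Ucp3 was lower in hippocampus (-0.77). Slc25a5, an ADP/ATP carrier, was higher in accumbens (0.20) and lower in amygdala (-0.21), Slc25a11 was higher in hippocampus (0.12) and lower in cortex (-0.14), and Ckb was lower in accumbens (-0.29). Of 6 antioxidant enzymes, Gpx1 was higher in accumbens (0.40) and amygdala (0.21) and lower in striatum (-0.29), and Prdx3 was higher in amygdala (0.24). Esrra, a nuclear receptor that drives respiratory genes, was lower in amygdala (-0.34). All these values are log2 differences called at a limma adjusted p under 0.05.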

How the data were processed

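Total RNA from 59 single samples was hybridised to an Affymetrix rat array, per the labels' protocols. The deposited table holds 1 linear intensity per probe set and array, already processed by the authors (software not given in the sources used here); 2% trimmed means were 998 to 999, so no scaling was added. Line, region and animal number came from titles and genotype labels; the source name, which gives iNP for every array, was not used.

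Signals under 16 were set to 16 and log2 transformed, and 59 control probe sets and the 40% with the lowest mean were dropped. All 5244 others were fitted with limma 3.58.1 in R 4.3.3 (lmFit, eBayes with an intensity trend), two-sided, with Benjamini-Hochberg adjustment over all of them. Line differences used each animal's mean over regions after removing region levels, or 1 region alone. Region contrasts and the interaction had the animal as a fixed block. The pairing comes from the animal numbers; residuals of the same animal correlated at 0.0574 on average (116 pairs; -0.00369 for other pairs), below 0 in 5 of 12 animals. The number of animals sets the precision. The fits were also run on simulated data with independent noise for each array and no animal effect. That check cannot show how the fits handle differences between animals.

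Gene names come from the platform annotation, which names no build, so probe sets have no coordinates; all 55 member genes matched the GRCr8 table. Members and lists were chosen with earlier results of these data known. Group values are given for the 5 members with the smallest p of the line difference over all regions and for up to 5 called rises and falls of each region contrast. The 3 smallest interaction p-values and called genes of the lists are named too. Alternatives were the filter, floor, quantile normalization, array weights, the block, a threshold of 0.3 (log2), and leaving out each animal or the arrays that stand apart; leaving out the 5 arrays nearest another region was chosen after seeing the data.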

Additional observations from a re-analysis of the deposited data

Results flagged for a closer look

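Within groups, the values of 18 probe sets named above were searched for a single array far from the rest, by Dixon's 95% limit; 10 of 180 groups had one, and chance gives about 1 in 20. Atp5if1 (rc_AA891873_f_at) read 10.74 in hippocampus of iP animal 1, with the next array at 11.42, and 10.76 in amygdala of the same animal, next 11.74. Cox6a2 (rc_AI171644_s_at) read 7.52 in accumbens of iP animal 2, next 9.12, and 10.22 in striatum of iP animal 5, next 9.61. Ndufa4 read 11.95 in striatum of iP animal 2, next 12.26, and 12.67 in accumbens of iNP animal 8, next 12.43. Ndufs1 read 9.01 in hippocampus of iP animal 2, next 9.37. Uqcrfs1 (rc_AI103911_at) read 9.18 in hippocampus of iNP animal 11, next 9.63. Ndufa8 read 12.29 in hippocampus of iNP animal 8, next 13.14. Cox4i1 (rc_AA818226_s_at) read 14.80 in amygdala of iNP animal 8, next 15.05. The amygdala arrays of iP animal 1 and iNP animal 8 are among the 5 nearest another region. No line by region interaction was called.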

How the results depend on the processing

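Each count of called members was recomputed under each alternative. Leaving out each animal in turn gave 0 called members in all 6 line tests (0 to 0), 4 to 8 in cortex, 2 to 6 in striatum, 7 to 12 in hippocampus, 4 to 9 in amygdala and 5 to 8 in accumbens. With no replicate block the striatum count was 2 instead of 4. With all arrays and a random replicate block, the line difference over all regions had 1 called member, Cox7b (limma adjusted p = 0.0409), instead of 0. That random block fit counts the arrays of an animal as nearly independent. With the added requirement of a log2 difference over 0.3, cortex had 2, striatum 2, hippocampus 3, amygdala 1 and accumbens 3. With no filter striatum had 2, and with quantile normalization accumbens had 10. Amygdala had 11 without the 2 arrays that stand apart and 15 without the 5 nearest another region. Other counts stayed within 1.5 times, 76 in all against 11 that moved, apart from leaving out animals. Among members named with a test, 216 values kept direction and side of the threshold, 33 lost the call and 1 gained it, apart from leaving out animals, and 0 reversed. Why a call was lost was not tested, except that the 0.3 threshold removes small differences by construction. The farthest bound of a line difference was 0.57, for Cox5a.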
